A study of Mus musculus with 2 samples.

Results

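The 39 genes described here are immediate early and dissociation response genes, followed in the ependymal-like and endothelial-like cells of mouse spinal cord. They were chosen from values measured in these same cells, where they had led the largest group of DNGR-1 traced ependymal cells and several endothelial groups. Their levels are therefore given as a description, with no test. All 39 had at least 1 UMI (unique molecular identifier, the tag of 1 captured RNA molecule) in each library, out of 24071 genes with a UMI in either.

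Both libraries came from spinal cords of adult C57BL/6j mice aged 10 to 12 weeks, genotype Clec9a cre/cre R26 LSLtdTomato/LSLtdTomato. Cre is made from the Clec9a locus, which encodes the receptor DNGR-1, and a cell that has ever made it, with its descendants, carries the red protein tdTomato. Every mouse carried Cre at both Clec9a copies and the reporter at both R26 copies, and received pentobarbital before perfusion with PBS. The cords were digested with the Neural Tissue Dissociation Kit (P) and myelin was removed on magnetic beads. Live CD45- CD133+ cells then went into a tube of traced and a tube of non-traced cells, 1 library each. The number of mice is not given in the sources used here. No tissue without digestion was analysed here, so RNA made in the animal and RNA made during dissociation cannot be told apart.

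Immediate early genes are transcribed within minutes of a stimulus, without the need for new protein, from factors such as SRF and CREB that already sit on their promoters. Many encode transcription factors of the AP-1, EGR, KLF and NR4A families, and others encode proteins that switch the response off again, such as the phosphatase DUSP1 and the RNA decay factor ZFP36. They are also known to rise in tissues that are cut and warmed with enzymes, and so are often read as a mark of dissociation in single-cell data. Ependymal cells form the ciliated lining of the central canal, and endothelial cells form the wall of the blood vessels around it.

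Promoters of immediate early genes are known to hold sites for such factors, and a few of them are shown because they hold the motifs that were counted. RefSeq promoters (GRCm38.p6) were found for 33 of the 39 genes, but not for Cebpd, Cyr61, Egr1, Egr3, Ier2 and Nfkbiz. The 250 bases before each listed start were searched for the CArG box (the binding site of SRF), the cAMP response element TGACGTCA and the AP-1 site TGANTCA on both strands, and for TATAAA on the sense strand. The cAMP response element was present in 5 of the 33 genes (15.2%), namely Btg2, Dusp1, Ppp1r15a, Maff and Plk2, and in 1.77% of all 27025 genes. A CArG box was found for Egr2 and Zfp36 (6.06% of the genes, beside 1.62% of all). The AP-1 site was present for Zfp36l1 and Csrnp1 (6.06%, beside 7.82%), and TATAAA for 6 genes (18.2%, beside 8.94%), among them Fos, Gadd45g and Sgk1. Capitals in the following sequences mark these motifs, and each sequence ends at the base before the start.
Fos, chr12:85473640-85473889, plus strand: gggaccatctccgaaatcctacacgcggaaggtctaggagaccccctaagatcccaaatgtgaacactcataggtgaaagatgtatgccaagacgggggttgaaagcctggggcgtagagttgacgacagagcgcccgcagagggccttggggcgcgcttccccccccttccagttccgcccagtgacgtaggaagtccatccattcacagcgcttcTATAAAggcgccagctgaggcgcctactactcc
Btg2, chr1:134079156-134079405, minus strand: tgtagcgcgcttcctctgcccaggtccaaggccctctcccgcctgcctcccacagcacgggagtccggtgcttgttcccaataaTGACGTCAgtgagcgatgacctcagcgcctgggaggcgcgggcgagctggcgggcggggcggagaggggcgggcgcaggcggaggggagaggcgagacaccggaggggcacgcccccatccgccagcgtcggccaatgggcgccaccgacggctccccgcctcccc
Dusp1, chr17:26508473-26508722, minus strand: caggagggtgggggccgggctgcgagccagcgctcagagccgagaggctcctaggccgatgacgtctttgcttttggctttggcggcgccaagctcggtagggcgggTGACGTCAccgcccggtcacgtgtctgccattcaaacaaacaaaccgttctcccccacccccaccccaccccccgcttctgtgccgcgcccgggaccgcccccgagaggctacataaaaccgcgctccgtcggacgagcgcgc
Ppp1r15a, chr7:45526269-45526518, minus strand: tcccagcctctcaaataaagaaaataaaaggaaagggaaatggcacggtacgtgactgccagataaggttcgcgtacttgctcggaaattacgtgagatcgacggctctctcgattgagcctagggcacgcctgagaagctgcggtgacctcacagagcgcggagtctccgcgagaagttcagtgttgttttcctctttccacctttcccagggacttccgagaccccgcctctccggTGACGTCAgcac
Plk2, chr13:110394794-110395043, plus strand: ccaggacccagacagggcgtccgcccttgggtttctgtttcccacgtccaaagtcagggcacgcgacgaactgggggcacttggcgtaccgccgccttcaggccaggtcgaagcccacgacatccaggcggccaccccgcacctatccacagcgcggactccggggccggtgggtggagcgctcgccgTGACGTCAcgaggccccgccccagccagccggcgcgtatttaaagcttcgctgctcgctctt
Zfp36, chr7:28379229-28379478, minus strand: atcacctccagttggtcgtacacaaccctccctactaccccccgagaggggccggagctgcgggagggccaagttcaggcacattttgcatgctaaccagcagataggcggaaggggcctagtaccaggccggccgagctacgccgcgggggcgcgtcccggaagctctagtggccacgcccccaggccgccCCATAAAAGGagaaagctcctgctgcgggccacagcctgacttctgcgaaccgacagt
Egr2, chr10:67537619-67537868, plus strand: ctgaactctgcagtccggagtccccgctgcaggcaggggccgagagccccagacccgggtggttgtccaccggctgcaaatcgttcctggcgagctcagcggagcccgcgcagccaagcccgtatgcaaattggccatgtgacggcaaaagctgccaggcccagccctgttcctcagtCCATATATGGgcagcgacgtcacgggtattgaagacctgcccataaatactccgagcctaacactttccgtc
In the Fos promoter the capitals are TATAAA, which ended 28 bases before the start. The capitals of Btg2, Dusp1, Ppp1r15a and Plk2 are the cAMP response element, ending 159, 136, 5 and 55 bases before it. Those of Zfp36 and Egr2 are the CArG box, ending 49 and 63 bases before it. A match describes the letters only, and binding was not measured.

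There were 25411 non-traced cells (median 7218 UMIs) and 4825 traced cells (median 8566 UMIs). Of the traced cells, 4761 (98.7%) were ependymal-like, and of the non-traced cells 1152 (4.53%) were ependymal-like and 18194 (71.6%) endothelial-like. The traced library held only 46 endothelial-like cells. All 10 ependymal markers were detected in at least 50% of the ependymal-like cells in both libraries, as were all 8 endothelial markers in at least 50% of the endothelial-like cells. A further 740 non-traced cells carried both marker sets and were left out as mixed. Endothelial marker UMIs were also found in the ependymal-like cells: they summed to 372 CPM (UMIs per 1000000 UMIs of the class) in the non-traced and to 26.0 CPM in the traced cells, 1.65% and 0.116% of the endothelial-like level. Of the cell barcodes, 42 occurred in both libraries. Each group is 1 library, so the differences given here have no replicate check, and the intervals (95%) cover counting error only.

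The 39 genes took up a larger part of the RNA in endothelial-like than in ependymal-like cells. Of all UMIs, 1.17% (1.163 to 1.170) came from them in traced ependymal-like cells, 1.35% (1.346 to 1.362) in non-traced ependymal-like cells and 3.13% (3.130 to 3.136) in non-traced endothelial-like cells. The 46 traced endothelial-like cells had 2.89% (2.84 to 2.94). The difference thus lay between the cell classes in both libraries, and the ependymal-like cells of the 2 libraries differed less than the classes did.

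Within each class the cells varied widely. With every cell thinned to 1000 UMIs, the share of its UMIs from the 39 genes had a median of 0.6% in traced ependymal-like cells (quartiles 0.3 and 1.7, 95th percentile 4.1, highest cell 9.4). Non-traced ependymal-like cells had a median of 0.7% (quartiles 0.4 and 1.9) and endothelial-like cells 2.8% (quartiles 1.3 and 4.5, highest cell 14.4). Most ependymal-like cells were low, yet the classes overlapped. In the traced library 63.8% of ependymal-like cells had at most 1% and 79.8% at most 2%. Of the endothelial-like cells, 28.8% lay above the 95th percentile of traced ependymal-like cells, and 52.6% of traced and 58.2% of non-traced ependymal-like cells lay above the 5th percentile of endothelial-like cells. The medians without thinning were 0.581%, 0.657% and 2.80%. A median of 4 of the 39 genes was detected per traced ependymal-like cell at 1000 UMIs, 5 per non-traced ependymal-like cell and 12 per endothelial-like cell.

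**Figure D1:**
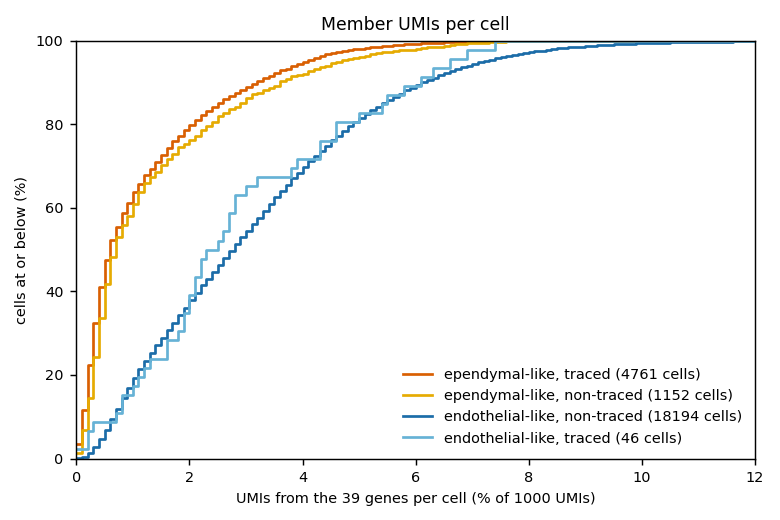
Cumulative share of cells (y axis, %) with at most a given share of their 1000 UMIs from the 39 genes (x axis, %), for the ependymal-like and endothelial-like cells of each library. The ependymal-like lines rise steeply below 1% and nearly coincide, while both endothelial-like lines lie to the right, with a median of 2.8% in the non-traced library.

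Levels of each gene were read as CPM from the counts summed over a class. The kit counts the 3′ end of each molecule once, so CPM is not scaled by gene length. Differences were taken as log2(CPM + 1), which shrinks those of genes with few counts.

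The AP-1 factors, which bind DNA as pairs of FOS, JUN and ATF family proteins, were the most abundant group. Fos reached 3097 CPM (3081 to 3113) in traced ependymal-like cells, 3239 CPM (3201 to 3278) in non-traced ependymal-like cells and 3324 CPM (3314 to 3333) in endothelial-like cells. Its level was therefore nearly the same in the 3 groups, and it alone supplied 26.5%, 23.9% and 10.6% of the UMIs of the 39 genes. At 1000 UMIs per cell, Fos was detected in 52.1%, 55.5% and 70.2% of the cells, and without thinning in 71.0%, 78.8% and 88.6%. No class known to lack Fos was captured, so a background share could not be set. Jun, the usual partner of Fos, had 1083, 1287 and 3958 CPM, in the same order of groups. Junb, a JUN protein of lower activating strength, had 608, 873 and 2724 CPM. Jund, a JUN family gene known to be expressed also in resting cells, had 1055, 1139 and 3522 CPM and was detected without thinning in at least 98.7% of the cells of each group. These 3 JUN genes were each about 1.6 log2 units higher in endothelial-like cells than in their ependymal-like neighbours of the same library (1.62 for Jun, 1.64 for Junb and 1.63 for Jund), unlike Fos at 0.04.

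Fosb, a FOS family gene, had 117, 190 and 558 CPM (1.55 log2 units higher in the endothelial-like cells of the non-traced library). Fosl2, whose product FRA-2 takes the place of FOS in AP-1, was rare in ependymal-like cells, with 1.81 and 4.08 CPM, and had 45.9 CPM in endothelial-like cells. Atf3, a repressor of the stress response, had 363, 379 and 565 CPM, and Maff, a small MAF protein, 10.5, 17.2 and 30.3 CPM. Both stayed within 2-fold between the classes.

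Among the zinc finger factors, Klf2 and Klf4 separated the classes and Egr1 did not. Klf2, a factor that endothelial cells make in response to blood flow, had 242 CPM (238 to 247) in traced ependymal-like, 347 CPM (335 to 360) in non-traced ependymal-like and 3724 CPM (3714 to 3733) in endothelial-like cells. The endothelial-like level of Klf2 was 3.42 log2 units above that of the non-traced ependymal-like cells. Klf4 had 67.1, 103 and 1274 CPM (3.62 log2 units) and Klf6, a related factor, 121, 158 and 588 CPM (1.89 log2 units). Egr1, a direct SRF target, had 421, 601 and 552 CPM, so that the classes differed by -0.12 log2 units. Egr2 stayed at or below 4.16 CPM in all 3 groups. For Egr3 the traced ependymal-like cells had 7 UMIs and the non-traced ones 0, where 3 UMIs would be 0.35 CPM, and endothelial-like cells had 78, so no fold is given.

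The 3 NR4A orphan nuclear receptors, which need no ligand, differed in class. Nr4a3 (NOR-1) was an ependymal gene in these cells: it had 196 CPM (192 to 200) in traced and 171 CPM (162 to 180) in non-traced cells of that class, and 6.34 CPM (5.94 to 6.76) in endothelial-like cells. This was the largest difference in the ependymal direction among the 39 genes, at -4.55 log2 units or 23.4-fold on the CPM + 1 scale. Nr4a2 (NURR1) ran the other way, with 0.393, 1.75 and 80.1 CPM, which is 4.88 log2 units higher in endothelial-like cells. Nr4a1 (NUR77) was present in all groups, with 63.1, 99.3 and 188 CPM (0.92 log2 units).

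The C/EBP factors, leucine zipper proteins of the acute phase and inflammatory response, split in the same manner. Cebpb had 97.8, 144 and 21.8 CPM, a difference of -2.67 log2 units between the classes of the non-traced library. Cebpd had 6.56, 21.2 and 251 CPM and was 3.50 log2 units higher in endothelial-like cells. Cebpb and Nr4a3 were thus the ependymal, and Cebpd and Nr4a2 the endothelial, members of their families.

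Of the other regulators, Ier2 and Ier3 were mostly endothelial. Ier3, a survival factor induced by NF-κB, had 48.4, 83.9 and 1153 CPM (3.76 log2 units), and Ier2, a small nuclear protein, 74.7, 125 and 871 CPM (2.79 log2 units). Ier5, from the same naming series, had 71.7, 97.1 and 244 CPM, and Csrnp1 6.41, 10.3 and 54.4 CPM. Btg2, an antiproliferative partner of the RNA deadenylase complex, was as abundant in ependymal-like as in endothelial-like cells, with 693, 673 and 780 CPM. Nfkbiz, an atypical IκB protein, had 24.0, 28.4 and 55.8 CPM.

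Genes whose products end the response did not share one pattern either. Dusp1, the phosphatase that inactivates MAP kinases, had 140, 210 and 1850 CPM, a difference of 3.13 log2 units between the classes. Zfp36, which triggers decay of AU-rich RNAs, had 140, 275 and 749 CPM (1.44 log2 units). Its relative Zfp36l1 was not higher in endothelial-like cells, with 780, 1058 and 705 CPM. Socs3, the feedback inhibitor of JAK and STAT signalling, was lower in endothelial-like cells, with 418, 505 and 201 CPM (-1.32 log2 units). Ppp1r15a (GADD34), which restores translation after stress, had 249, 194 and 285 CPM.

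Among growth arrest, survival and kinase genes, Plk2, Sgk1, Plk3 and Mcl1 were higher in endothelial-like cells. Plk2, a polo-like kinase, had 5.65, 10.9 and 303 CPM (4.68 log2 units). Sgk1, a kinase induced by serum and glucocorticoids, had 5.78, 17.9 and 281 CPM (3.90 log2 units). Plk3 had 2.20, 1.98 and 20.8 CPM, and Mcl1, a BCL-2 family survival protein, 128, 98.4 and 471 CPM. The growth arrest genes Gadd45b and Gadd45g stayed within 2-fold between the classes, at 128, 149 and 123 CPM and at 530, 491 and 356 CPM.

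The last group joins secreted and membrane-associated proteins. Apold1, an endothelial early response gene, had 0.349 CPM (16 UMIs) in traced ependymal-like, 11.2 CPM (96 UMIs) in non-traced ependymal-like and 478 CPM (475 to 482) in endothelial-like cells. At 5.30 log2 units, or 39.3-fold on the CPM + 1 scale, it had the largest difference of the 39 in the endothelial direction. Rhob, a small GTPase of endosomes, had 206, 266 and 747 CPM (1.49 log2 units). Cyr61 (CCN1), a matrix protein, had 461, 457 and 185 CPM (-1.30 log2 units).

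**Figure D2:**
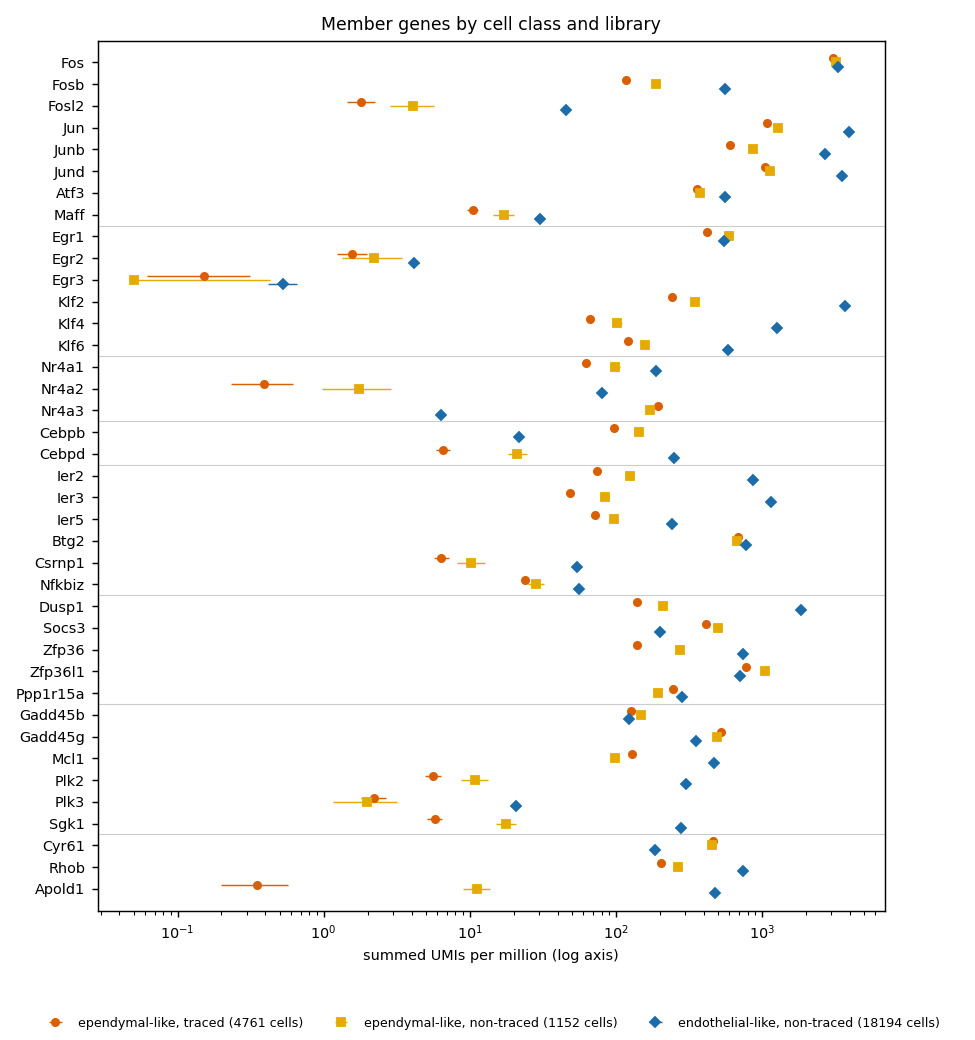
CPM (UMIs per 1000000, x axis, log scale) of each of the 39 genes (y axis, ordered by role) in traced ependymal-like, non-traced ependymal-like and non-traced endothelial-like cells, with exact Poisson 95% intervals of the summed counts. Egr3, with 0 UMIs in non-traced ependymal-like cells, is drawn there at the edge of the axis (0.05), and only Nr4a3, Cebpb, Socs3 and Cyr61 lie more than 2-fold lower in endothelial-like cells.

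Counted over the genes with at least 10 CPM in either group of the non-traced library, 22 of 37 were 2-fold or more higher in endothelial-like cells, beside 19.4% of all 10491 genes of that level. In the ependymal direction there were 4, beside 27.3% of all genes. The median difference of the 37 genes was 1.55 log2 units, and that of all genes -0.08. A gene may have reached 10 CPM only through the group in which it was high, and the choice of the genes used these cells, so the counts describe the list and are no test of it. In the traced library, with its 46 endothelial-like cells, 23 were higher and 3 lower of 37, with a median of 1.76, beside 22.1% and 29% of all genes and a median of -0.10.

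By role, the genes 2-fold higher in endothelial-like cells were 5 of 8 AP-1 factors, 3 of 4 zinc finger factors, 4 of 6 other regulators, and 4 of 6 growth arrest, survival and kinase genes. Of the feedback genes 2 of 5 were higher and 1 was lower. Nuclear receptors and C/EBP factors each had 1 gene in each direction. Of the secreted and membrane genes 2 were higher and 1 was lower. Beside these counts, 19.4% of all genes were higher and 27.3% lower, and groups this small allow no reading of a role. Only 4 of the 6 zinc finger factors were counted, because Egr2 and Egr3 did not reach 10 CPM.

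**Figure D3:**
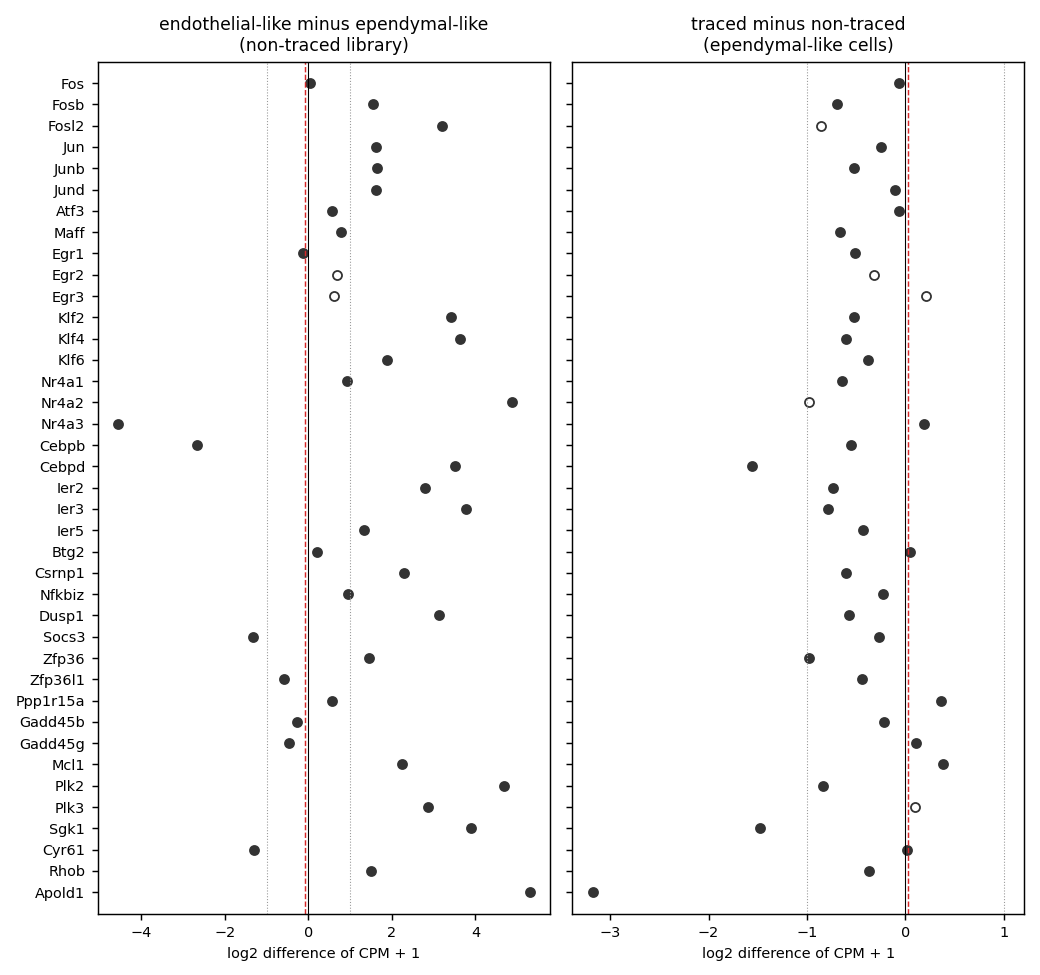
Difference in log2(CPM + 1) (x axes) of the 39 genes (y axis) between endothelial-like and ependymal-like cells of the non-traced library (left) and between traced and non-traced ependymal-like cells (right). Filled points have at least 10 CPM in either group and open points do not, dotted lines mark 2-fold and the dashed line the median of all genes. Most points on the left lie far from 0 in the endothelial direction, and most on the right lie between 0 and 2-fold lower in traced cells.

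In ependymal-like cells the traced library held slightly less of most of these genes. Of the 34 genes with at least 10 CPM in either library, 28 had a negative and 6 a positive difference, traced minus non-traced. Among all 9568 genes of that level, 4454 were negative and 5114 positive. The median of the 34 genes was -0.47 log2 units, beside 0.03 for all genes. None was 2-fold higher, beside 0.784% of all 9568 genes of that level, and 3 were 2-fold lower, beside 1.35%. This comparison shares the non-traced ependymal-like cells with the comparison of classes, so their values are not independent.

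The 3 genes were Apold1 (-3.18 log2 units), Cebpd (-1.56) and Sgk1 (-1.48), each of them higher in endothelial-like cells in the comparison of classes. The value of Apold1, with 16 UMIs in the traced cells, depended on the pseudocount, at -4.65 with 0.1 and -1.03 with 10, and the log2 ratio of its CPM had a counting interval of -5.87 to -4.23. With a pseudocount of 10, Cebpd (-0.92) and Sgk1 (-0.82) were no longer past 2-fold. Next came Zfp36 at -0.98, Plk2 at -0.83, Ier3 at -0.78, Ier2 at -0.74 and Fosb at -0.69. Fos (-0.06), Atf3 (-0.06), Cyr61 (0.01) and Btg2 (0.04) were at the same level in both libraries within 0.1 log2 units. The positive end held Mcl1 (0.38), Ppp1r15a (0.36) and Nr4a3 (0.19).

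The sum of endothelial markers in ependymal-like cells also differed between the libraries, at 372 CPM in the non-traced and 26.0 CPM in the traced cells. The non-traced ependymal-like level was 2.34% of the endothelial-like level for Apold1, 2.19% for Nr4a2, 3.59% for Plk2, 6.36% for Sgk1 and 8.45% for Cebpd, while the summed endothelial markers stood at 1.65%. Of the 8 endothelial markers, 1 was at 0 in traced ependymal-like cells and none in non-traced ones. When cells with any endothelial marker UMI were left out, 105 of 1152 non-traced and 3850 of 4761 traced cells remained. The median difference was then -0.35, with Apold1 at -2.47, Cebpd at -1.33 and Sgk1 at -0.55. Sgk1 was thus no longer 2-fold lower, while Zfp36 now was (-1.10), so that 4 genes were lower, beside 2.98% of all genes. The part of endothelial RNA in the remaining difference was not tested.

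The libraries also differed in depth and in mitochondrial RNA. Ependymal-like cells had medians of 8564 UMIs and 3.99% mitochondrial UMIs in the traced and of 7048.5 UMIs and 5.82% in the non-traced library. With only cells of at least 4000 UMIs and at most 5% mitochondrial UMIs, 317 non-traced ependymal-like cells remained, the median share of the 39 genes per non-traced ependymal-like cell was 1.3% in place of 0.7%, and the median difference was -0.71. Then 9 genes were 2-fold lower in traced cells, among them Zfp36 (-1.30), Ier2 (-1.12), Nr4a1 (-1.10) and Fosb (-1.05), beside 1.89% of all genes. The filter also left 3762 of the 4761 traced cells, and its 2 limits were not tried apart.

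Whether the genes were high in the same cells was read from correlations across cells at 1000 UMIs per cell. These are descriptions with no test, because cells of 1 library share its depth and RNA background. Fos followed the summed other 38 genes most closely in ependymal-like cells, with r = 0.80 over 4761 traced and r = 0.80 over 1152 non-traced cells. In the traced cells Junb (0.62), Btg2 (0.59), Egr1 (0.58), Jun (0.58), Socs3 (0.56) and Atf3 (0.50) came next. In the non-traced cells Junb (0.67), Egr1 (0.66), Socs3 (0.62), Btg2 (0.59) and Jun (0.58) did. The feedback gene Socs3 and the antiproliferative gene Btg2 were thus among the genes that went with Fos in ependymal-like cells of either library.

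Other genes of the list were expressed in these cells but followed the sum less closely. Nr4a3 had r = 0.12 and 0.15 in the traced and the non-traced library, Mcl1 0.12 and 0.14, and Ier5 0.07 and 0.03. Jund had r = 0.25 and 0.32, but 0.62 in endothelial-like cells, where Junb (0.69), Fos (0.67) and Jun (0.65) led. Dusp1 had r = 0.35 and 0.34 in ependymal-like and 0.53 in endothelial-like cells. After thinning it was detected in 9.6% of traced and 16.4% of non-traced ependymal-like cells, and in 67.6% of endothelial-like cells. The part of detection in these r values was not tested.

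Over pairs of genes detected in at least 5% of the cells, the median r was 0.131 in traced ependymal-like (325 pairs), 0.158 in non-traced ependymal-like (351 pairs) and 0.121 in endothelial-like cells (435 pairs). Fos with Junb was the closest pair in each group, at 0.622, 0.670 and 0.565. After it came Fos with Btg2 (0.60) in traced and Fos with Egr1 (0.649) in non-traced ependymal-like cells, and Jun with Jund (0.548) in endothelial-like cells. Fos with Socs3 reached 0.575 and 0.623 in traced and non-traced ependymal-like cells and 0.241 in endothelial-like cells. These values grew with the number of UMIs kept per cell.

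**Figure D4:**
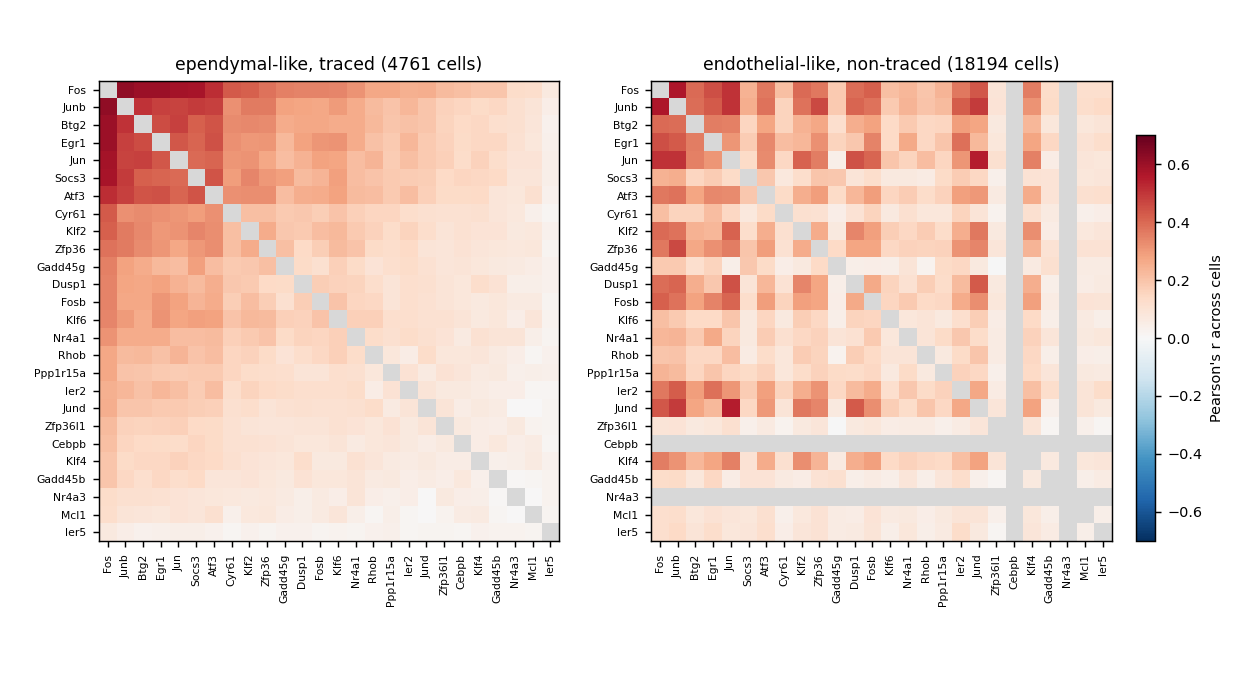
Pearson's r across cells (colour) for pairs of the 26 genes found in at least 5% of traced ependymal-like cells. The left panel shows those cells and the right panel non-traced endothelial-like cells. Grey marks a gene with itself and genes under 5% on the right. The block of Fos, Junb, Btg2, Egr1, Jun, Socs3 and Atf3 stands out on the left, and Jund joins Jun, Junb and Fos only on the right.

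The size of this shared change was read by ranking cells on the summed other 38 genes and comparing the lowest and highest 25%. These are ends of a range and not cell types. Cells tied at a cut were all kept, so an end could hold more than 25% of the cells. In traced ependymal-like cells Fos stood at 234 CPM in 1684 cells of the low end and at 9122 CPM in 1224 cells of the high end, a ratio of 38.99. Junb went from 42.5 to 1871 CPM (44.0-fold), Egr1 from 24.9 to 1292 CPM (51.9-fold) and Socs3 from 30.7 to 1297 CPM (42.3-fold). Btg2 went from 125 to 1948 CPM (15.6-fold) and Jun from 270 to 2644 CPM (9.81-fold).

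Several genes with low correlation changed less along the same axis. Nr4a3 went from 149 to 288 CPM (1.93-fold), Jund from 752 to 1479 CPM (1.97-fold), Zfp36l1 from 529 to 1112 CPM (2.10-fold) and Ier5 from 61.2 to 106 CPM (1.73-fold). In non-traced ependymal-like cells the corresponding ratios were 2.49 for Nr4a3, 2.28 for Jund and 2.12 for Zfp36l1, beside 26.9 for Fos and 46.3 for Egr1. The ends were ranked on genes that share the cell with the one measured, so their direction was fixed in part by the ranking.

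The 2 ends were alike in depth. Ranked on all 39 genes, traced ependymal-like cells of the low end (1547 cells) had a median of 8460 UMIs and those of the high end (1222 cells) 8527 UMIs, with 4.28% and 3.83% mitochondrial UMIs. Heat shock genes, chaperones that a warm digestion can also raise, took 1.40% of the UMIs at both ends. In endothelial-like cells they took 0.993% at the low and 1.60% at the high end. Scrublet called 1.13% and 5.76% of the cells of these endothelial-like ends doublets. The median share of mitochondrial UMIs was 4.16% and 3.13% there, and the mean share of the row Gm42418 1.58% and 0.777%. The part of these in the heat shock difference was not tested. The row Gm42418, which overlaps ribosomal RNA and was named after its values were seen, took 6.29% of the UMIs at the low and 0.775% at the high end of traced ependymal-like cells. Its part in the ranking was not tested, and a gain in 1 row lowers the share of every other.

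Outside the list, the genes most correlated with the sum of the 39 included other regulators. Hes1, a Notch target and transcriptional repressor, led in ependymal-like cells, with r = 0.38 in traced and 0.41 in non-traced cells, followed by the circadian repressor Bhlhe40 (0.30 in each). Pnrc1, Slc38a2, Sox9 and Btg1 followed, at 0.21 to 0.25 in traced and 0.23 to 0.27 in non-traced cells. In endothelial-like cells the heat shock gene Hspa1a (0.30), the protease gene Adamts1 (0.29) and Hes1 (0.28) were among the highest. The comparison covered 3593, 3494 and 3288 genes.

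The ependymal-like cells fell into clusters from which the 39 genes and the other stress genes had been left out, so that these clusters could be compared on them. The cluster led by Stmn2 held 3584 traced and 660 non-traced cells, with 1.23% and 1.45% of UMIs from the 39 genes. The cluster with Ucma and Vtn among its leading genes had 1.12% (209 traced cells) and 1.38% (383 non-traced cells). The cluster led by Sntn, a gene of the ciliary tip, had the lowest shares of summed UMIs, 0.976% in 929 traced and 0.817% in 109 non-traced cells. Junb stood at 335 and 290 CPM in that cluster and at 682 and 938 CPM in the Stmn2 cluster, while Jund, at 1088 and 1038 CPM and 1052 and 1151 CPM, hardly differed. The 39 traced cells led by Mki67, a proliferation marker, had 1.10%.

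Nr4a3, the ependymal NR4A gene, was found in every ependymal-like cluster, from 104 CPM in the traced Ucma and Vtn cells to 212 CPM in the traced Stmn2 cells. Rhob was highest in the Ucma and Vtn cells of both libraries, at 399 and 404 CPM, and at 203 and 212 CPM in the Stmn2 cells. The highest per-cell median of an ependymal-like cluster, 0.8% in the non-traced Stmn2 cells, was below the lowest of an endothelial-like cluster, 2.0%.

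Endothelial-like cells formed 7 clusters, and their share of UMIs from the 39 genes ranged from 2.72% to 3.70%. The highest was in 4322 cells led by 1810011O10Rik, Plaur, Slc26a10 and Rgcc. The lowest was in 2055 cells led by Cyp2e1 and Wnt5a, with the vein marker Nr2f2 among their top 10. In those cells Fos had 1691 CPM and Egr1 274 CPM, against 4374 and 824 CPM in the first cluster. Ier3 went against this order, at 1729 CPM in the Cyp2e1 cells, its highest level of the 7, and 783 CPM in the cells led by Pi16 and Fbln5. The 7 clusters leave out an unnamed cluster of 2804 cells, which also had Cyp2e1, Wnt5a and Nr2f2 among its top 10 genes. Its sum of vein markers, a list that holds Icam1 and Vcam1, was 1597 CPM, against 1036 CPM in the Cyp2e1 cells. Its share from the 39 genes was 4.61%, so vein markers did not go with a low share throughout.

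The cluster led by Pi16 and Fbln5 (724 cells), which had the highest sum of artery markers, 7579 CPM, held the highest levels of Nr4a2 (272 CPM), Gadd45g (1248 CPM), Socs3 (490 CPM) and Gadd45b (257 CPM). In the Cyp2e1 cells Nr4a2 had 23.6 CPM and Gadd45g 114 CPM, which made the ratios between highest and lowest cluster 11.5 and 11.0. Klf2 (1.27-fold), Dusp1 (1.34-fold) and Rhob (1.33-fold) varied least. A further cluster of 2156 cells was led by the interferon genes Cxcl10, Ifit3 and Ifit2 and had 2.97%. The share of cells called doublets by Scrublet ranged from 0.92% to 26.1% over these clusters, highest in the 1815 cells led by Unc5b and Rgs5, and its part in the levels was not tested.

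**Figure D5:**
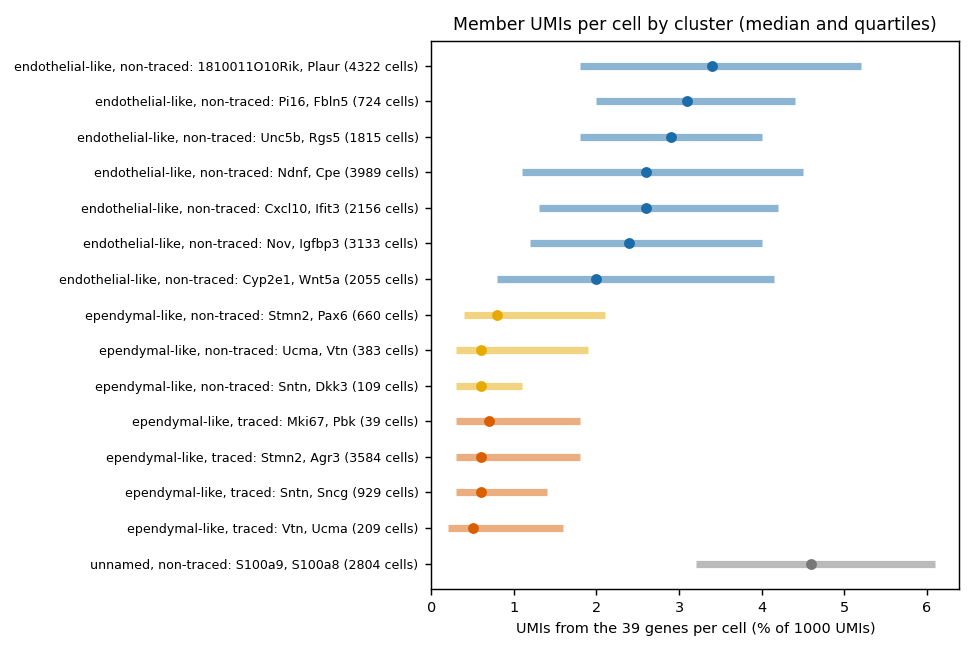
Share of 1000 UMIs from the 39 genes per cell (x axis, %) in each cluster (y axis, named by library and by 2 of its leading genes), with the median as a point and the quartiles as a bar. All endothelial-like clusters have medians of at least 2.0% and all ependymal-like clusters of at most 0.8%, and the unnamed cluster led by S100a9 and S100a8 is highest at 4.6%.

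The rest of the pathway was read from 3 more lists. Of 31 other early response genes with at least 10 CPM, 17 were 2-fold higher and 6 lower in the endothelial-like class (non-traced library), with a median of 1.04 log2 units, beside the 19.4% and 27.3% of all genes given above. Highest was Id1 at 5.50, an inhibitor of helix-loop-helix factors, followed by the MAP kinase phosphatase Dusp6 at 3.95. Batf3 (-4.48), an AP-1 factor, and Klf5 (-4.04) were the most ependymal. Of 17 genes of upstream signalling, such as the MAP kinases and SRF, 6 were higher and 0 lower (median 0.64). Of 16 heat shock genes 4 were higher and 5 lower, shares close to those of all genes, and their quartiles lay at -1.44 and 0.59.

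Between traced and non-traced ependymal-like cells these lists had medians of -0.16, -0.09 and 0.13 log2 units. Of 25 early response genes with at least 10 CPM, 0 were 2-fold higher and 2 were lower in traced cells, namely Id1 (-3.03) and Ier5l (-1.07), both of them higher in endothelial-like cells (5.50 and 3.15). None of the 17 upstream and 16 heat shock genes passed 2-fold. Of all genes 0.784% were higher and 1.35% lower, so that for lists of this length 0 is close to the share of all genes.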

How the data were processed

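Cells of 2 libraries (1 traced, 1 non-traced) were captured on a 10x 3′ kit. The authors deposited UMI counts per gene and cell, not normalised. The submitters' processing notes name Cell Ranger 3.0.2, STAR 2.5.1b, R 3.6.0, Seurat 3 and the mm10 build. All 25411 and 4825 deposited cells were kept. The total was 233318692 and 46530507 UMIs.

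Cells were clustered in scanpy 1.11.5 without integration (2000 features, 20 components, 20 neighbours, Leiden resolution 0.8, seed 1), leaving the 39 genes, the other stress lists and the reporter rows out of the features. Each library's cells of a cluster were named "-like" from marker lists where at least 3 markers were found in 50% of them. They were called mixed where another class had 70% of its markers in 50% of them, or where 3 markers of another class were among the top 10 genes within the class. This last rule and the naming by library were set after seeing the data. Libraries' cells of a cluster numbering under 20 took the other library's name. Class names were rebuilt here, so they may not match those of the study. Doublets were kept. Scrublet called 1187 non-traced endothelial-like cells but 0 traced ependymal-like cells, and leaving out its calls was an alternative only.

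Counts were summed per class and scaled to CPM, with exact Poisson intervals. Shares of cells have exact Clopper-Pearson intervals and, like correlations, used cells thinned to 1000 UMIs. No cell was shallower. Changes are called at 2-fold on log2(CPM + 1), for genes that reach 10 CPM in at least 1 of the groups compared. With 1 library per group no test was possible. The difference script was tested on simulated summed counts of the ependymal-like cells, with counting error only. The 2-fold call was passed by 0% of genes changed 1.5-fold, 36.4% of those changed 2-fold and 100% of those changed 3-fold or 4-fold. All 39 genes were named, with the 10 genes most correlated with their sum and the leading genes of clusters. Some genes that these rules name are not reported here. The genes and lists were chosen with earlier results of these data known. Reads of genes with near-identical copies may have been split or dropped by the authors' counting.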

Additional observations from a re-analysis of the deposited data

Results flagged for a closer look

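The difference between endothelial-like and ependymal-like cells had opposite signs in the 2 libraries for Egr1, at -0.12 log2 units in the non-traced and 0.26 in the traced library, and for Gadd45g, at -0.46 and 0.20. With 1 library each and 46 endothelial-like cells in the traced library, this difference between libraries was not tested. The summed counts of those 46 cells were 217 UMIs for Egr1 and 262 for Gadd45g.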

How the results depend on the processing

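No paired analysis was possible because each group is 1 library. Of the 3 genes 2-fold lower in traced ependymal-like cells and the 26 that differed 2-fold between the classes, all kept their sign under each of the 11 and 12 alternatives. They stayed past 2-fold in 30 of 33 and in 311 of 312 values. These counts include the settings with no filter on low values and with a 1.5-fold threshold. Neither setting can change the value of a gene, so the values there repeat the main ones. The causes of the shifts given next were not tested, apart from those that a setting makes by its own construction.

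Seurat integration (Seurat 5.3.0) named 43.8% of the non-traced library endothelial-like in place of 71.6%, with a median difference between the classes of 1.82 in place of 1.55 and a per-cell median of 3.2% in place of 2.8%. Keeping the 39 genes and the other stress genes among the features gave 57.1%, 2.07 and 4%. Both settings changed the endothelial-like cells: they held 45.8% and 63.9% of the main ones, and added others. Median depths were 9832.5 and 7605.5 UMIs, in place of 6534.5 UMIs. Leaving out ependymal-like cells with an endothelial marker UMI gave medians of -0.35 between the libraries (-0.47 otherwise) and 1.47 between the classes. Keeping cells of at least 4000 UMIs and at most 5% mitochondrial UMIs gave -0.71 and 1.25, with 9 genes lower in place of 3, and per-cell medians of 0.7%, 1.3% and 3% in traced ependymal-like, non-traced ependymal-like and endothelial-like cells (otherwise 0.6%, 0.7% and 2.8%). A pseudocount of 10 gave 1 lower gene and a median of 1.46 between the classes, and a 1.5-fold threshold gave 12 lower genes. Counting the unnamed cluster as endothelial-like, chosen after seeing the data, gave 1.76 and 3%. Without thinning the per-cell medians were 0.581% (traced ependymal-like) and 2.80% (endothelial-like), and at 500 UMIs 0.8% in non-traced ependymal-like cells. Removing mitochondrial, ribosomal protein, Gm42418, Malat1 and Mir6236 rows before thinning, also added later, gave 0.7%, 0.8% and 3.4%. The median pair correlation was 0.0838, 0.0981 and 0.0732 at 500 UMIs in traced ependymal-like, non-traced ependymal-like and endothelial-like cells. At 2000 UMIs it was 0.201 in the first and 0.175 in the last.

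The share of all genes past 2-fold between the libraries moved from 0.784% higher and 1.35% lower to 5.21% and 2.98% without cells with an endothelial marker UMI, to 0.941% and 1.89% with the limits on UMIs and mitochondrial UMIs, to 0.21% and 0.64% at a pseudocount of 10, and to 5.48% and 3.81% at 1.5-fold. Depth limited Apold1, Fosl2, Egr2, Egr3, Nr4a2 and Plk3 in ependymal-like cells, with at most 101 UMIs in a library.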

Other observations

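Beyond the ependymal-like and endothelial-like cells, the non-traced library held 2804 cells whose leading genes were S100a9, S100a8, Ptgs2, Icam1 and Vcam1 and which stayed unnamed, although all 8 endothelial markers were found in at least 50% of them. They had the highest share of UMIs from the 39 genes of any group, 4.61% of the total and a per-cell median of 4.6% at 1000 UMIs (quartiles 3.2 and 6.1), with a median of 16 of the 39 genes detected per cell. Jun reached 6667 CPM, Ier3 2791 CPM, Zfp36 1677 CPM and Egr1 1190 CPM in them. Their median depth was 12211 UMIs, above the 6534.5 UMIs of endothelial-like cells. The adhesion gene Icam1 had 315 CPM there and 47.9 CPM in endothelial-like cells, and the neutrophil genes S100a8 and S100a9 had 92.4 and 108 CPM there and 0.414 and 0.584 CPM in endothelial-like cells.

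The 162 pericyte-like cells, which express markers of the cells wrapped around capillaries, had 2.58% of their UMIs from the 39 genes. The per-cell median was 0.8% at 1000 UMIs, with quartiles of 0.4 and 3.05%. Fos had 4875 CPM in them, Egr1 1844 CPM and Fosb 1056 CPM, the highest levels of Egr1 and Fosb among the pericyte-like, endothelial-like and ependymal-like cells. Klf2 had 549 CPM in the pericyte-like cells, and their endothelial marker sum was 11.1% of the endothelial-like level.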
